A study of Mus musculus with 18 samples.

Results

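The clustered replication-dependent histone genes supply the core histones H2A, H2B, H3 and H4 and the linker histone H1 that package new DNA. The genes described here were all protein-coding genes of the GENCODE M21 annotation whose symbol starts with Hist1h, Hist2h, Hist3h or Hist4h. The annotation holds 67 of them, 65 matched an identifier in the files by Ensembl gene number, and these 65 stand among 50600 gene identifiers in all. Of the 65, 52 lie in the Hist1 cluster on chromosome 13, 10 in the Hist2 cluster on chromosome 3, 2 in the Hist3 cluster on chromosome 11 and 1 on chromosome 6. By class they were 6 H1, 18 H2A, 16 H2B, 12 H3 and 13 H4 genes.

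RNA was sequenced from C2C12, an established line of mouse myoblasts that fuse into multinucleated muscle fibers when serum is withdrawn. All libraries came from 3 stable lines: one transfected with a control plasmid, one with px459-Mapk6sg and depleted of ERK3, and one with px459-Mk5sg and depleted of MK5. ERK3, encoded by Mapk6, is an atypical MAP kinase, and MK5, encoded by Mapkapk5, is a protein kinase that binds it; px459 is a plasmid that carries Cas9 and a guide RNA. Cells were sampled in GM, the growth medium, and at DM2, day 2 of differentiation medium; the 6 groups hold 3 libraries each, 18 in all. The sources used here do not say whether a line was a single clone or whether libraries of a group came from separate cultures, so the p-values measure only the spread between these samples, which may be technical.

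Messenger RNAs of these genes end, in cycling cells, not in a poly-A tail but in a short stem-loop. The stem-loop binding protein (Slbp) and the U7 small nuclear RNP direct the cut just after that loop, and the RNAs build up in S phase and are degraded when DNA synthesis stops. Some of the genes also have a longer form with a poly-A tail, used by cells that leave the cycle. The libraries were poly-A selected and stranded, so every value below is a level of polyadenylated or co-purified histone RNA and not of all histone RNA.

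The stem-loop letters were searched on the transcribed strand as GGNNNTNNNNANNNCC, where the outer 6 bases on each side had to pair around a loop of 4. They were found after the stop codon in 44 of the 65 genes, 22 to 59 bases from it. The same letters lay within 80 bases of the stop codon in 34 of 38 members with a window of that length and in 12 of 20184 protein-coding genes with other names, or 0.0595%; the replication-independent histone gene H2afx was among the 12. The following windows belong to 5 genes the results turn on and to Hist1h4d; the stem-loop is in capitals, and bases run 5′ to 3′ on the strand of the gene in GRCm38.
Hist1h1c, chr13:23739500-23739529, plus strand: aacaatccaaaaGGCTCTTTTCAGAGCCac
Hist1h4i, chr13:22040964-22040993, minus strand: atgctacttaaaGGCCCTTTTTAGGGCCac
Hist3h2a, chr11:58955160-58955189, plus strand: acagacaccaaaGGCTCTTTTCAGAGCCac
Hist2h3c2, chr3:96238483-96238512, minus strand: attccccacaaaGGCTCTTTTCAGAGCCac
Hist1h2ap, chr13:21833027-21833056, minus strand: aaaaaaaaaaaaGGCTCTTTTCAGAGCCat
Hist1h4d, chr13:23581938-23581967, plus strand: ccaaaaaccaaaGGCCCTTTTCAGGGCCac

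What the M21 annotation holds after the loop separates these genes. The deposited values rest in part on other models. Deposited gene lengths match M21 for Hist1h1c, Hist1h4i, Hist3h2a, Hist2h3c2 and Hist1h2ap. They differ for others, such as Hist1h1d (744 against 7425 bases in M21) and Hist1h4d (393 against 1138). The models of Hist1h1c, Hist1h4i, Hist3h2a and Hist2h3c2 run on for 840, 330, 1643 and 377 bases past the stem-loop. Of these, Hist1h1c and Hist3h2a hold the poly-A signal AATAAA in their last 40 bases, Hist1h4i holds the variant ATTAAA there, and Hist2h3c2 holds neither. The model of Hist1h2ap ends 3 bases after the loop, and 12 adenines stand directly before it. Over all members, 25 models ran more than 50 bases past the loop and 19 ended within 50 bases of it. Either signal stood in the last 40 bases of 17 of the 65 members (26.2%), against 78.6% of 20950 other protein-coding genes. The most frequent loop, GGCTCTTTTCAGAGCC, was shared by 24 genes, among them Hist1h1c, with most counted reads, and Hist1h2ap, with none.

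Uniquely mapped reads of the 65 genes lay mostly in Hist1h1c and Hist1h2bc. Reads that fit several genes equally well are left out of these counts. Over all 18 libraries 49691 uniquely mapped reads were counted in members: 60.5% were in Hist1h1c, a linker histone gene (H1.2), and 24% in Hist1h2bc, an H2B gene. The M21 model of Hist1h2bc is spliced and holds no stem-loop after its stop codon. That model has 1156 bases, against a deposited gene length of 736, so the counts rest on another model. Only 13 members passed the filter on low counts, 4 of class H1, 2 of H2A, 3 of H2B, 2 of H3 and 2 of H4. Of the 52 that did not, 8 had no counted read in any library and the other 44 had a median of 47 reads and at most 140 reads over all 18 libraries.

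Which gene led depended on how reads that fit several genes were treated. RSEM, which divides such reads among genes, assigned 100799 expected reads to members, and 40.4% of them to Hist1h2ap, an H2A gene that had no counted read at all. Hist1h1c held 26.6% and Hist1h2bc 15.7% of the RSEM reads. Per length, in TPM (transcripts per 1000000), Hist1h2ap averaged 349 over the 18 libraries, with a range of 151 to 604. Hist1h2bc averaged 83.9 TPM (67.0 to 111), Hist1h1c 63.2 TPM (37.6 to 84.0), the H2B gene Hist1h2bl 21.9 TPM, the H2A gene Hist2h2aa2 17.4 TPM and Hist1h4i 7.51 TPM. Hist1h2bc stood above Hist1h1c in 16 of 18 libraries, and their ranges overlapped in 1 of the 6 groups, control GM. Over the 18 libraries Hist1h2bl (10.4 to 36.0) and Hist2h2aa2 (7.06 to 28) overlapped.

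Shared sequence was measured beside this gap. In Hist1h2ap 92.6% of all 75-base words of its transcripts also occur in another gene, and Hist1h2ao, whose loop window has the same letters, shares 93.1% of its own. In all, 28 members shared more than 50% of their 75-base words and 6 shared none. In Hist1h1c the share was 6.66%, in Hist1h2bc 27.1%. The standard deviation that RSEM gives for its own estimate was 17.8 to 31.7 reads for Hist1h2ap, on 851 to 4370 expected reads. Hist1h2ap values are therefore those of RSEM only, and reads of near-identical H2A genes cannot be told apart from its own.

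**Figure D1:**
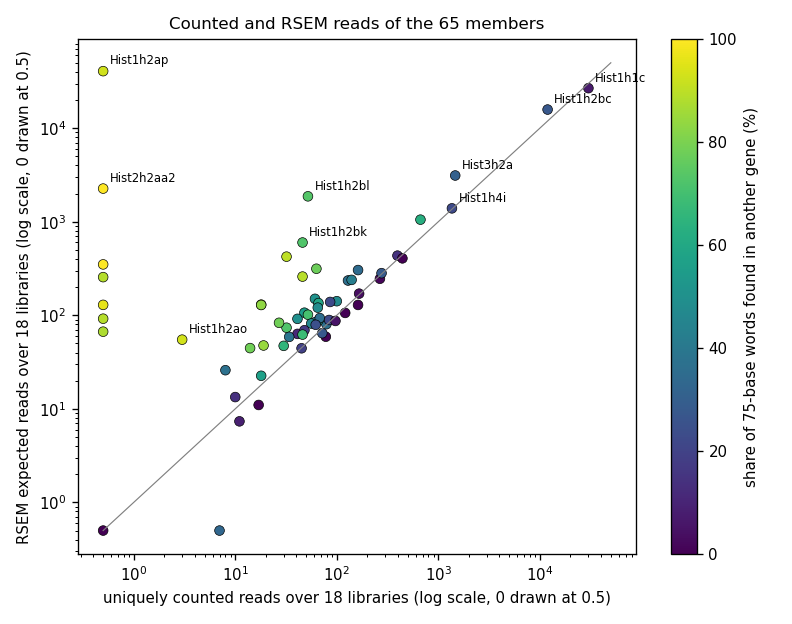
Reads of each clustered histone gene summed over the 18 libraries, counted from uniquely mapped reads on the x axis and estimated by RSEM on the y axis. Both axes are on a log scale, where genes without a read are drawn at a small positive value. Each point is 1 gene. Hist1h1c and Hist1h2bc lie near the diagonal, whereas Hist1h2ap has no counted read and 40695 RSEM reads.

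Libraries held 23.6 to 31.2 M reads (M, 1000000) and 17.5 to 23.4 M reads counted in genes. The share of reads outside genes was 2.40 to 3.22% in GM and 2.44 to 3.05% in control DM2, but 5.55, 7.73 and 3.79% in ERK3-depleted DM2 and 3.96, 4.11 and 2.84% in MK5-depleted DM2. The 4 libraries with the most reads outside genes are libraries 1 and 2 of each depleted line at DM2, and values without them stand beside some of the results they move. Mapk6 was not measurably lower in ERK3-depleted GM (118 ± 14.0 against 131 ± 17.0 CPM, SD, n = 3; edgeR adjusted p = 0.464) but was lower at DM2 (116 ± 19.6 against 210 ± 7.84 CPM, adjusted p = 2.18e-05). Mapkapk5 by RSEM was 33.3 ± 2.40 TPM in MK5-depleted GM against 55.5 ± 3.46 in control (-0.68 on RSEM reads, edgeR adjusted p = 0.000246), but at DM2 its difference was -0.08 (adjusted p = 0.348). Mapk6 was also lower in MK5-depleted DM2 (-0.4, adjusted p = 0.0115); Cas9 cuts DNA, so reads on a cut gene need not fall and neither gene checks the labels fully. Myoblast markers such as Des and Myod1 were present in every library, with summed levels of 1500 to 4320 CPM. Of 7 markers of differentiated muscle, all were higher at DM2 than in GM in the group means of each line, and their sum averaged 76.3 CPM in control GM and 2550 CPM in control DM2.

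**Figure D2:**
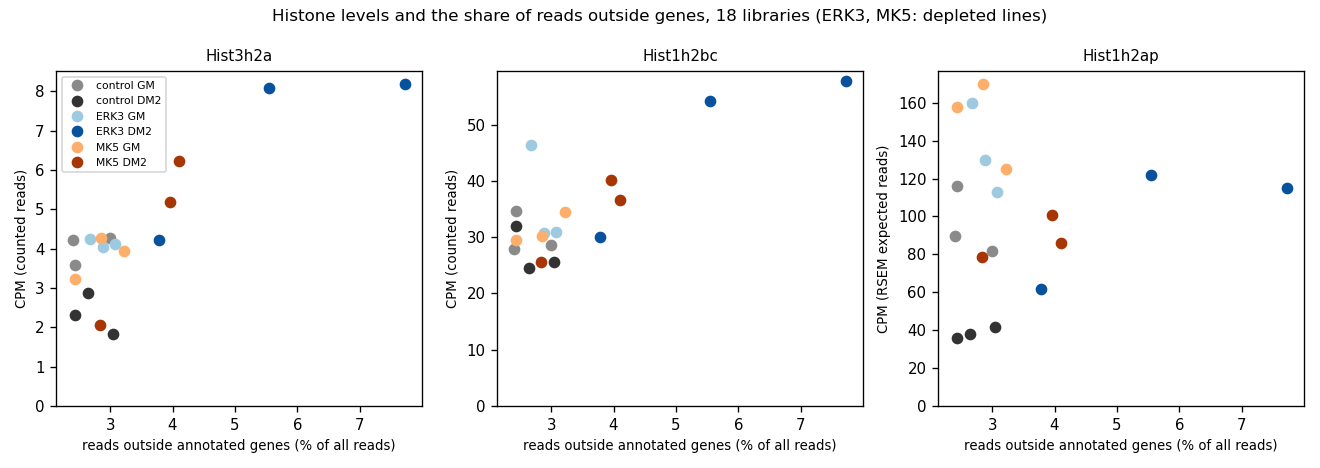
Levels of Hist3h2a and Hist1h2bc (CPM of counted reads) and of Hist1h2ap (CPM of RSEM reads) against the share of all reads outside annotated genes, in percent. Each point is 1 of the 18 libraries, coloured by line and medium. Libraries 1 and 2 of the ERK3-depleted and MK5-depleted lines at DM2 have the largest shares, at 5.55, 7.73, 3.96 and 4.11%.

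The first question was how histone RNA changed when each line went from GM to DM2. In the control line 3 of 13 tested members fell and none rose, where 45.6% of the 13939 genes tested were called in either direction. The median change of the 13 members was -0.82 on the log2 scale, beside -0.02 over all genes, and 12 of 13 values were below 0. The members called lower were Hist1h1c, the H4 gene Hist1h4i and the H2A gene Hist1h2ae. In the ERK3-depleted line 2 rose and 5 fell (55.1% of all genes called), and in the MK5-depleted line 1 rose and 4 fell (49.3% of all genes called). Member medians in these lines were -0.86 and -0.46. The share of members called was below that of all genes in the control and MK5-depleted lines, at 23.1% and 38.5%, and close to it in the ERK3-depleted line, at 53.8%. Since these are bulk samples, fewer cells of a type and less RNA per cell cannot be told apart.

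Hist1h1c was lower at DM2 in all 3 lines. Its values in GM were 93.8, 113 and 101 CPM (counted reads per 1000000, TMM-scaled) in control, 101, 103 and 89.1 in ERK3-depleted, with 84.5, 95.4 and 82.2 in MK5-depleted libraries. At DM2 they were 81.3, 77.2 and 72.9 in control, 81.7, 78.7 and 65 in ERK3-depleted, with 68.8, 75.6 and 67.9 in MK5-depleted libraries. Each DM2 library thus lay below each GM library, across lines too. The change was -0.41 ± 0.10 log2 units in control (SE; edgeR quasi-likelihood test, Benjamini-Hochberg adjusted p = 0.00215), -0.38 ± 0.10 in ERK3-depleted cells (adjusted p = 0.00344) and -0.30 ± 0.10 in MK5-depleted cells (adjusted p = 0.0162). The call in MK5-depleted cells was lost without GM library 2 or DM2 library 1, with an adjusted p of up to 0.0792. RSEM reads gave changes of -0.37, -0.48 and -0.37, with adjusted p = 0.00348, 0.000412 and 0.00381 by edgeR.

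Hist1h4i, 1 of 13 genes for the nucleosome core histone H4, was called lower on counted reads in 2 of the 3 lines. It lies at chr13:22040636-22041362 on the minus strand. In control it was at 4.27, 3.56 and 4.96 CPM in GM and 2.66, 2.23 and 1.77 at DM2, with no overlap (-0.94 ± 0.23, edgeR adjusted p = 0.00263). In the ERK3-depleted line it was at 7.46, 6.86 and 5.43 CPM in GM and 4.40, 3.16 and 2.63 at DM2, again with no overlap (-0.95 ± 0.22, adjusted p = 0.00128). In the MK5-depleted line it was at 4.35, 4.08 and 3.37 CPM in GM and 2.98, 3.60 and 2.21 at DM2; those ranges overlapped and the change of -0.43 ± 0.23 was not called (adjusted p = 0.122). The calls in control and ERK3-depleted cells held without any one library.

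The other linker histone genes had few reads, and their calls differed by line. Hist1h1d (H1.3) changed by -1.66 ± 0.39 in MK5-depleted cells (edgeR adjusted p = 0.00179) and -1.12 ± 0.36 in ERK3-depleted cells (adjusted p = 0.0124); in control the value was -1.0 with an adjusted p of 0.0534. Hist1h1e (H1.4) fell by 1.78 and Hist1h1b (H1.5) by 1.36 log2 units in MK5-depleted cells (adjusted p = 0.00512 and 0.0235 by edgeR). Hist1h1d had 4 to 30 reads in a library and Hist1h1b 2 to 23, so counting error is a large part of these values. Leaving out 1 library raised the adjusted p above 0.05 for Hist1h1d in ERK3-depleted cells (GM library 3 or DM2 library 2, up to 0.0606) and for Hist1h1b (GM library 3 or DM2 library 2, up to 0.139). Without the 4 libraries with most reads outside genes both calls were lost too, at -1.23 (adjusted p = 0.0733) and -1.3 (adjusted p = 0.096).

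Hist1h2ae, an H2A gene with 2 to 19 reads in a library, was lower by 1.54 ± 0.58 log2 units in control cells (edgeR adjusted p = 0.0372) and by 1.16 ± 0.48 in ERK3-depleted cells (adjusted p = 0.0466). In control the call held only without DM2 library 2, and without each of the other 5 libraries the adjusted p reached up to 0.126. In ERK3-depleted cells it was lost without GM library 1 or 2 or DM2 library 2 or 3, with an adjusted p of up to 0.177. The H2B gene Hist1h2be changed by -0.99 in ERK3-depleted cells (adjusted p = 0.0278), a call lost without GM library 3 or DM2 library 1 or 3 (up to 0.174) and without the 4 libraries (-1.02, adjusted p = 0.135). Libraries of ERK3-depleted GM and DM2 with the same number deviated together, and with that number as a block Hist1h1e was called there as well (-1.01, adjusted p = 0.0374, against 0.0606 without the block).

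Hist2h3c2, an H3 gene of the Hist2 cluster, was the one tested member with a positive change in each line. In GM it was at 1.28, 1.58 and 1.2 CPM in control, 1.45, 1.23 and 0.932 in ERK3-depleted, with 0.837, 0.874 and 0.844 in MK5-depleted libraries. At DM2 it was at 3.33, 2.97 and 1.34 CPM in control, 3.62, 6.02 and 1.66 in ERK3-depleted, with 2.32, 2.40 and 1.21 in MK5-depleted libraries. Library 3 was the lowest of each DM2 group, and in control it lay within the GM range. The change was called in ERK3-depleted cells (1.63 ± 0.40, a 3.10-fold rise, edgeR adjusted p = 0.00239) and in MK5-depleted cells (1.21 ± 0.44, adjusted p = 0.0295), but not in control (0.90 ± 0.40, adjusted p = 0.0724). Without the 4 libraries with most reads outside genes neither was called, at 0.46 (adjusted p = 0.475) and 0.52 (adjusted p = 0.427). The call in MK5-depleted cells held only without DM2 library 3; without each of the other 5 libraries its adjusted p reached up to 0.0944. RSEM reads gave 1.09 in control, with an adjusted p of 0.00478. On log2(TPM + 1) the control value was 0.95 and called (limma adjusted p = 0.00193). In a fit with a covariate for reads outside genes it was 0.88 (edgeR adjusted p = 0.026). The ERK3-depleted and MK5-depleted lines had 0.44 and 0.55 on log2(TPM + 1), with only the second called (limma adjusted p = 0.0424). With the covariate they had 0.37 and 0.86, neither called. Without the 4 libraries Hist2h3c2 changed by 0.92 in control. The 62.6% of its 75-base words shared with other genes leaves its counts uncertain. Hist2h3c2 is outside the rule for giving values by library and was chosen after its values were seen.

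Hist1h2ap, by RSEM, fell in the control and MK5-depleted lines, and its fall in the ERK3-depleted line passed the test on some scales. In control it was at 116, 89.6 and 81.7 CPM of RSEM reads in GM and 36.0, 37.7 and 41.7 at DM2, with no overlap. In ERK3-depleted cells it was at 160, 130 and 113 in GM and 122, 115 and 61.7 at DM2. In MK5-depleted cells it was at 158, 170 and 125 in GM and 101, 86.0 and 78.7 at DM2. The change was -1.32 ± 0.22 in control (edgeR on RSEM reads, adjusted p = 0.000131), -0.77 ± 0.21 in MK5-depleted cells (adjusted p = 0.00713) and -0.43 ± 0.21 in ERK3-depleted cells, where it was not called (adjusted p = 0.0967). It was called there with the replicate number as a block (-0.45, adjusted p = 0.0262) and on log2(TPM + 1) (-0.79, limma adjusted p = 0.00083, beside a median of -0.27 over all genes). In TPM that line held 543, 442 and 420 in GM and 334, 281 and 207 at DM2, with no overlap. Of 36 members tested on RSEM reads 9 were called in control, 10 in ERK3-depleted and 12 in MK5-depleted cells; 44.4, 54.2 and 47.8% of all genes were called. This gene and the other members named only from RSEM were also chosen after their values were seen.

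**Figure D3:**
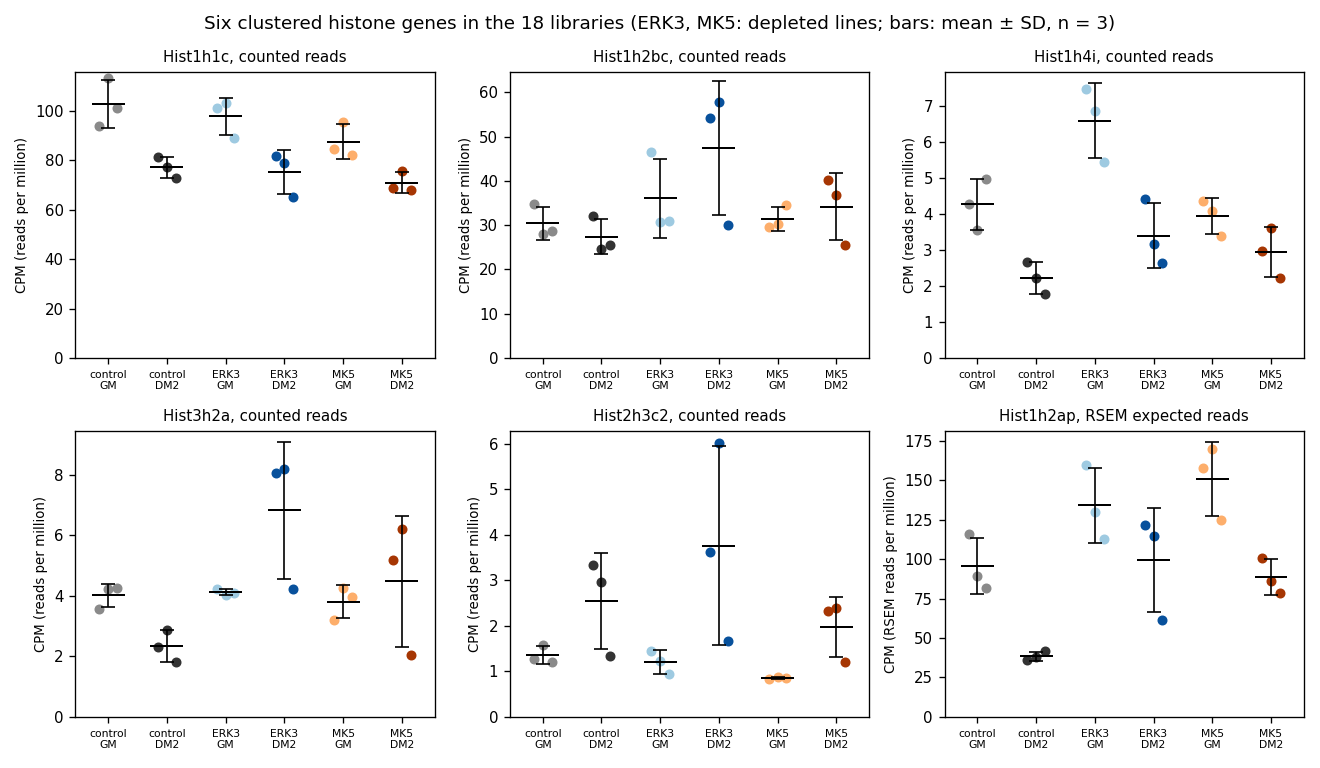
Levels of 6 clustered histone genes in each of the 18 libraries by line and medium, in CPM; points are libraries, horizontal bars are means and whiskers are SD (n = 3). Hist1h1c is lower at DM2 in each line, Hist3h2a is higher at DM2 in 2 of 3 libraries of each depleted line, and Hist1h2ap, from RSEM reads, is lowest in control DM2.

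The second question was whether depletion of ERK3 or MK5 changed histone RNA in growing cells. In GM 1 of 13 tested members was called higher in ERK3-depleted cells and none lower, where 6.79% of all genes tested were called. The members' median was 0.55 beside -0.01 over all genes, and 10 of 13 values were positive. The called gene was Hist1h1e, at chr13:23620629-23622558 on the minus strand. Its M21 model, 1930 bases against a deposited gene length of 748, overlaps Hist1h2be on the same strand. Hist1h1e values were 0.480, 0.527 and 0.451 CPM in control and 1.34, 1.23 and 1.75 in ERK3-depleted libraries. These were 9, 12 and 9 reads against 25, 24 and 32. The groups did not overlap, and the change was 1.55 ± 0.45 log2 units, a 2.93-fold difference (edgeR adjusted p = 0.0463). The call was lost without each of the 6 libraries in turn, with adjusted p from 0.0611 to 0.172.

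In MK5-depleted GM no tested member was called by edgeR or by DESeq2, 2 had an unadjusted p under 0.05 by edgeR, and 8.45% of all genes tested were called. Hist1h1e was at 1.97, 0.776 and 1.16 CPM there, each above the 3 control libraries, with a change of 1.42 ± 0.45 and an adjusted p of 0.0569 by edgeR. On RSEM reads the same gene was called in MK5-depleted GM (1.42, adjusted p = 0.0425) and in ERK3-depleted GM (1.42, adjusted p = 0.0478); with 36 members tested, it was the 1 call in either comparison, where 7.46% and 6.32% of all genes were called. Hist1h4i was above control in each ERK3-depleted GM library, at 0.63 ± 0.21 and an adjusted p of 0.0746. Same-numbered libraries of control and either depleted line deviated together in GM. With the replicate number as a block 2 members were called for ERK3 depletion, with Hist1h4i at 0.61 (adjusted p = 0.0296), and 1 for MK5 depletion, Hist1h1e at 1.37 (adjusted p = 0.0313). On RSEM reads the block gave 2 and 3 calls, adding Hist1h4i (0.65, adjusted p = 0.0252), Hist1h2ap (0.66, adjusted p = 0.0132) and Hist2h2aa2 (-0.9, adjusted p = 0.0203). No share of all genes called is given for the block fits, so these counts are description only. For Hist1h2bc and Hist3h2a the changes in ERK3-depleted GM were 0.24 ± 0.22 and 0.04 ± 0.30 (adjusted p = 0.519 and 0.953 by edgeR).

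At DM2 4 of 13 tested members were higher in ERK3-depleted than in control cells and none lower, where 55.8% of all genes tested were called and 28% were called higher. In MK5-depleted cells 1 was higher and none lower, where 45.1% of all genes were called. The members' medians were 0.81 and 0.40, beside 0.01 and 0.00 over all genes, and 11 and 10 of 13 values were positive. The control DM2 libraries enter both comparisons, so these counts are not independent of each other. The share of members called, 30.8% and 7.69%, was below that of all genes in both comparisons.

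Hist3h2a, an H2A gene of the Hist3 cluster at chr11:58954685-58956830, had the clearest difference. Control DM2 libraries held 2.32, 2.88 and 1.82 CPM, ERK3-depleted ones 8.07, 8.19 and 4.22, and MK5-depleted ones 5.19, 6.22 and 2.05. In GM the values were 3.57, 4.22 and 4.26 in control, 4.24, 4.04 and 4.11 in ERK3-depleted, with 3.22, 4.27 and 3.95 in MK5-depleted libraries. Each ERK3-depleted DM2 library lay above each control DM2 library, but MK5-depleted library 3 lay within the control range. The ERK3-depleted difference was 1.54 ± 0.31 log2 units (2.91-fold, edgeR adjusted p = 0.000458) and the MK5-depleted difference 0.93 ± 0.32 (1.91-fold, adjusted p = 0.023). On RSEM reads they were 0.73 (adjusted p = 0.00144) and 0.49 (adjusted p = 0.0249), and without the 4 libraries with most reads outside genes 0.38 (adjusted p = 0.122) and 0.05 (adjusted p = 0.864). The annotated model of Hist3h2a overlaps Trim17 on the same strand, and 30.6% of its 75-base words are shared.

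These differences moved with the share of reads outside genes. Without libraries 1 and 2 of each depleted line at DM2, the ERK3-depleted difference of Hist3h2a on counted reads was 0.84 and still called, and the MK5-depleted one turned to -0.18; both groups then hold 1 library, assumed to vary like the others. With that share fitted as a covariate the ERK3-depleted difference was 0.62 (edgeR adjusted p = 0.273) and the MK5-depleted one 0.62, neither called. On RSEM reads the covariate gave 0.27 for ERK3 depletion (adjusted p = 0.408). On log2(TPM + 1) the ERK3-depleted difference was 0.13 (limma adjusted p = 0.371), beside a median of -0.46 over all genes on that scale. With length and GC trends removed the ERK3-depleted difference on counted reads was 1.39 (edgeR adjusted p = 0.000675). Its call also held without any one library (1.38 to 1.78, adjusted p up to 0.00391). What part of the difference goes with reads outside genes was not tested. In MK5-depleted cells the call was also lost without DM2 library 1 or 2 or control DM2 library 1 or 3 (adjusted p up to 0.139).

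Going from GM to DM2, Hist3h2a moved up in the ERK3-depleted line (0.72 ± 0.30, edgeR adjusted p = 0.0459) and had values of -0.78 ± 0.32 in control (adjusted p = 0.0529) and 0.23 ± 0.30 in MK5-depleted cells (adjusted p = 0.541). On log2(TPM + 1) the ERK3-depleted change was -0.16, where the median of all genes, given above, was lower still. With the covariate the change was -0.15 and without the 4 libraries 0.03. With length and GC trends removed it was 0.79 (edgeR adjusted p = 0.02), and 0.77 with the replicate block as well (adjusted p = 0.00888). Its direction thus depends on the setting. The call there held only without DM2 library 3, with an adjusted p of up to 0.159 without each of the other 5. The test of the difference between the responses gave 1.5 ± 0.43 for ERK3-depleted against control (2.83-fold, edgeR adjusted p = 0.0173) and 1.01 ± 0.44 for MK5-depleted against control (adjusted p = 0.109). The first held without each of the 12 libraries in turn (adjusted p 0.0019 to 0.0472), and was 0.80 without the 4 libraries (adjusted p = 0.149) and 0.66 with the covariate (adjusted p = 0.446). In these tests 1 and 0 of 13 members were called by edgeR, where 28.6% and 18% of all genes were; in the second, 2 members had an unadjusted p under 0.05 and DESeq2 called 0. On RSEM reads 4 and 1 of 36 members were called in them, where 27.8% and 17.5% of all genes were.

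Hist1h2bc was higher in 2 of 3 ERK3-depleted DM2 libraries. Its values at DM2 were 32, 24.6 and 25.6 CPM in control, 54.2, 57.9 and 30.0 in ERK3-depleted, with 40.2, 36.7 and 25.6 in MK5-depleted libraries. In GM they were 34.7, 28 and 28.6 in control, 46.4, 30.7 and 31 in ERK3-depleted, with 29.6, 30.2 and 34.5 in MK5-depleted libraries. The ERK3-depleted groups overlapped with control in both media. The DM2 difference was 0.79 ± 0.22 (1.73-fold, edgeR adjusted p = 0.00515) for ERK3 depletion, and 0.32 ± 0.22 (adjusted p = 0.246) for MK5 depletion. Without the 4 libraries the first was 0.13, and with the covariate 0.11 (edgeR adjusted p = 0.831). On log2(TPM + 1) it was -0.03, so its direction flips on that scale, where the median of all genes, given above, was lower still.

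Both H4 genes were called higher in ERK3-depleted DM2 on small differences or few reads. Hist1h4i differed by 0.62 ± 0.24 (1.53-fold, edgeR adjusted p = 0.0339), with 2.66 CPM in the highest control library and 2.63 in the lowest ERK3-depleted one. It was -0.08 on log2(TPM + 1), 0.24 without the 4 libraries (adjusted p = 0.607) and not called without control DM2 library 2 or 3 or ERK3-depleted DM2 library 1 (adjusted p up to 0.214). Hist1h4d, at chr13:23581598-23582735, was at 0.0483, 0.186 and 0.431 CPM in control and 0.501, 0.682 and 0.400 in ERK3-depleted DM2 libraries, on 1 to 15 reads in each of the 18 libraries. The difference was 1.22 ± 0.48 (2.33-fold, edgeR adjusted p = 0.0386), and it was lost without library 1 or 2 of either group (adjusted p up to 0.163), without the 4 libraries (0.83, adjusted p = 0.442) and on log2(TPM + 1) (0.52, limma adjusted p = 0.067). In GM Hist1h4d stood at 0.480, 0.483 and 0.451 CPM in control, 0.751, 0.666 and 0.658 in ERK3-depleted, with 0.628, 0.631 and 0.369 in MK5-depleted libraries, and no GM difference was called. Its MK5-depleted DM2 libraries held 0.331, 0.546 and 0.316 CPM.

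Hist1h2ap by RSEM was higher than control at DM2 in every library of both depleted lines, by the values given above. The difference was 1.38 ± 0.22 for ERK3 depletion (2.6-fold, edgeR on RSEM reads, adjusted p = 8.72e-05) and 1.2 ± 0.22 for MK5 depletion (2.30-fold, adjusted p = 0.000468). Without the 4 libraries they were 0.67 (adjusted p = 0.0404) and 1.02 (adjusted p = 0.00418), and on log2(TPM + 1) 0.75 and 0.83 (limma adjusted p = 0.000725 for both). With the covariate the first was 0.87 and not called (adjusted p = 0.0712), the second 1.06 (adjusted p = 0.00168). In GM the differences were 0.49 (adjusted p = 0.172) and 0.66 (adjusted p = 0.0687). Per length, Hist1h2ap and Hist1h2ao together were at 161 ± 10.2 TPM in control DM2, 274 ± 63.9 in ERK3-depleted DM2 and 285 ± 23.0 in MK5-depleted DM2 (SD, n = 3).

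Of the 36 members tested on RSEM reads, 11 were higher and 1 lower in ERK3-depleted than in control DM2 (55.3% of all genes called, 27% called higher), and 6 higher and none lower in MK5-depleted DM2 (44.7% of all genes called). Hist2h2aa2, an H2A gene with no counted read and all of its 75-base words shared, was at 3.68, 4.74 and 4.42 CPM of RSEM reads in control, 11.5, 12.7 and 5.35 in ERK3-depleted, with 6.84, 9.28 and 5.72 in MK5-depleted DM2 libraries. The ERK3-depleted difference was 1.2 (edgeR adjusted p = 0.00165), and 0.31 without the 4 libraries (adjusted p = 0.463); the MK5-depleted one was 0.76 (adjusted p = 0.0354), and 0.40 (adjusted p = 0.32). The Hist1h2bl value was lower in ERK3-depleted DM2, at -0.50 (adjusted p = 0.036). Hist1h2ab, Hist1h2af, Hist1h2bq and Hist2h3c1, also called, were estimated at 0 reads in all 3 control DM2 libraries, so no fold is given; so was Hist1h4m, which was called with the replicate number as a block only. The remaining calls were Hist1h2ai and Hist1h3c, with Hist1h2bc, Hist1h4d and Hist3h2a called from both kinds of reads.

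Between the depleted lines no member was called by edgeR or DESeq2, in GM or at DM2, where 0 of 13939 genes were called in either medium; 1 and 2 members had an unadjusted p under 0.05. The largest difference at DM2 was that of Hist2h3c2, -0.92 ± 0.38 in MK5-depleted against ERK3-depleted cells (edgeR adjusted p = 0.204).

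**Figure D4:**
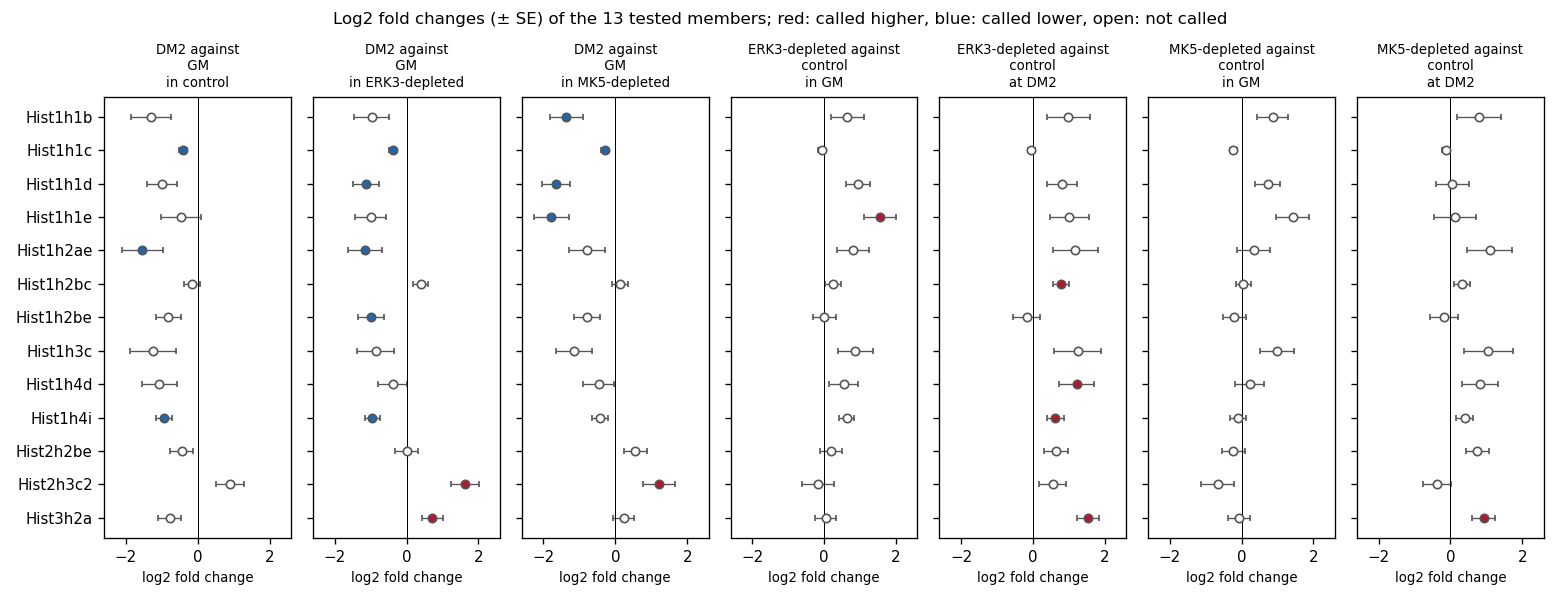
Log2 fold changes of the 13 tested members in the DM2 against GM and the depletion comparisons, from edgeR on counted reads; points are estimates, bars are SE, and filled points passed an adjusted p of 0.05. Most changes from GM to DM2 lie below 0 except those of Hist2h3c2, and most DM2 differences of the ERK3-depleted line lie above 0.

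Sums over clusters add the many genes with few reads to a few tested genes with more, and were not tested. Over the 18 libraries Hist1h4i had the most reads in the Hist1 sum below, 1362. In the Hist2 sum Hist2h3c2 had 667 and Hist2h2be 443 reads, and the next gene, Hist2h4, had 121. The Hist2 sum therefore restates mainly these genes and is no pattern of the whole cluster. Without Hist1h1c and Hist1h2bc, the other 50 Hist1 genes together held 13.9 ± 1.70 CPM in control GM, 22.2 ± 0.745 in ERK3-depleted GM and 17.2 ± 1.15 in MK5-depleted GM (SD, n = 3). At DM2 the sums were 6.95 ± 0.375, 11.7 ± 1.65 and 9.64 ± 1.47 CPM. In both media the libraries of either depleted line lay above all control libraries: 21.4 to 22.8 and 16 to 18.2 CPM against 11.9 to 15 in GM, and 10.3 to 13.5 and 7.95 to 10.5 against 6.63 to 7.37 at DM2. Most of the 52 members not tested are among these Hist1 genes, so their sum is not independent of the Hist1 sum. It had the same order of means, 5.91 ± 1.49, 9.67 ± 0.984 and 8.07 ± 0.670 CPM in GM and 3.20 ± 0.248, 5.97 ± 0.0798 and 4.78 ± 1.2 at DM2. The 10 Hist2 genes differed from this: their sum was 3.02 ± 0.451 CPM in control GM and 3.98 ± 1.35 at DM2, 3.41 ± 0.548 and 6.04 ± 2.66 in ERK3-depleted cells, and 2.78 ± 0.249 and 4.17 ± 1.10 in MK5-depleted cells, with overlapping ranges in each line.

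**Figure D5:**
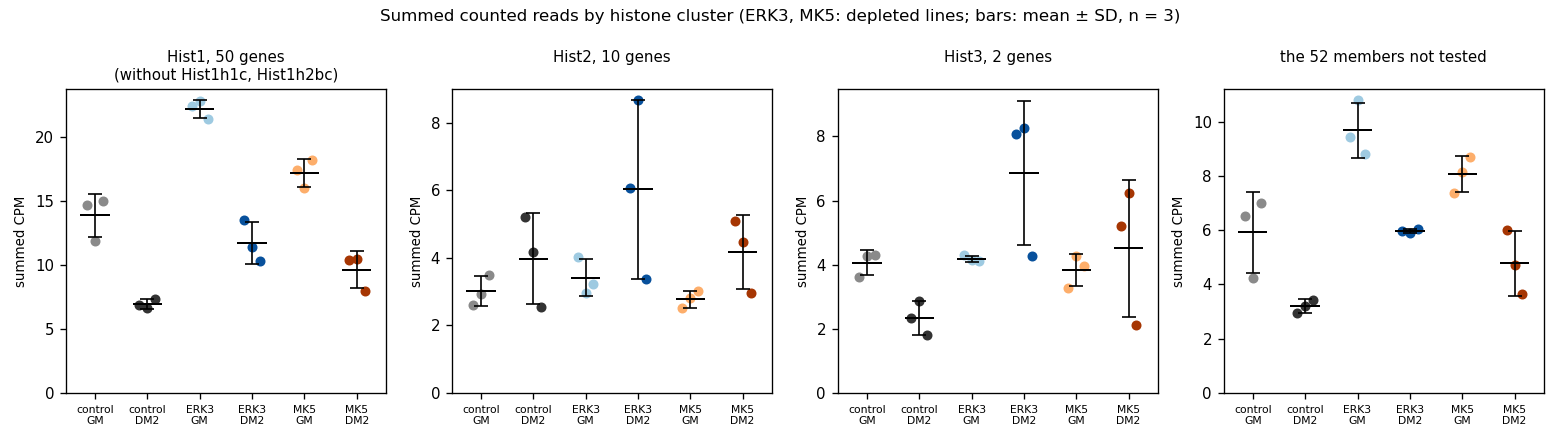
Summed CPM of the Hist1 genes without Hist1h1c and Hist1h2bc, the Hist2 genes, the Hist3 genes and the 52 members that were not tested, in each library by line and medium; bars are means and whiskers SD (n = 3). The Hist1 sum lies at 6.63 to 7.37 in control DM2 and at 21.4 to 22.8 in ERK3-depleted GM.

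By class and again without Hist1h1c and Hist1h2bc, the H4 sum was 6.70 ± 1.15 CPM in control GM and 3.72 ± 0.334 at DM2, 10.4 ± 1.27 and 6.23 ± 0.653 with ERK3 depleted and 6.92 ± 0.667 and 5.12 ± 0.831 with MK5 depleted. The H2A sum, in which Hist3h2a has most reads, was 5.75 ± 0.185 and 2.94 ± 0.624 CPM in control, 7.02 ± 0.856 and 8.62 ± 2.53 with ERK3 depleted and 6.13 ± 0.723 and 5.91 ± 2.77 with MK5 depleted. In control, ERK3-depleted and MK5-depleted GM, the H1 sums averaged 1.79, 3.89 and 3.81 CPM, the H2B sums 4.04, 5.13 and 4.21 and the H3 sums 2.91, 3.7 and 3.03. At DM2 the H1 sums averaged 1.07, 1.91 and 1.14 CPM, the H2B sums 2.40, 3.28 and 3.13 and the H3 sums 3.34, 4.98 and 3.26. Hist1h4i has most reads of the H4 sum, and Hist2h3c2 of the H3 sum. Per length and with all reads, the 65 genes together held 633 ± 72.8 TPM in control GM and 410 ± 9.65 at DM2. The ERK3-depleted line held 779 ± 84.4 and 502 ± 78.7 TPM, and the MK5-depleted line 830 ± 70.3 and 504 ± 20.6. Without Hist1h1c, Hist1h2bc and Hist1h2ap these totals were 114 ± 4.02 and 95.0 ± 1.83 for control, 145 ± 3.77 and 100 ± 2.31 for the ERK3-depleted line and 129 ± 1.41 and 98.2 ± 5.44 for the MK5-depleted line; these sums were not tested either.

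Genes for the processing and turnover of histone RNA were counted next, from a list of 16 tested genes. Counts of this and the following lists stand against the shares of all genes called, which were 45.6, 55.1 and 49.3% from GM to DM2, 6.79 and 8.45% for depletion in GM and 55.8 and 45.1% for depletion at DM2. These shares are from counted reads. No such share is given for log2(TPM + 1) or without the 4 libraries. List counts on those settings show only how calls move, not how a list compares with all genes. From GM to DM2 1 rose and 3 fell in control, whereas the ERK3-depleted line had 4 higher and 8 lower and the MK5-depleted line 2 higher and 7 lower. Slbp fell in each line, by 0.57, 1.25 and 0.79 log2 units (edgeR adjusted p = 0.00732, 7.29e-06 and 0.000645). Zfp473, a component of the U7 particle, fell by 1.68 in control (adjusted p = 0.00211) on levels of 0.826 ± 0.259 and 0.253 ± 0.136 CPM. In GM 1 was higher and 1 lower with ERK3 depletion and 2 were higher with MK5 depletion; Slbp, Npat, Casp8ap2, Lsm10, Lsm11 and Eri1 were not among them.

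At DM2 5 were higher and 7 lower with ERK3 depletion (median -0.04), and 4 and 3 with MK5 depletion (median 0.08), beside medians of 0.01 and 0.00 over all genes. Npat, the coactivator of histone gene transcription, was at 31.7 ± 0.540 CPM in control, 17.6 ± 3.21 in ERK3-depleted (-0.85, edgeR adjusted p = 2.56e-05) and 20.9 ± 0.279 in MK5-depleted DM2 (-0.60, adjusted p = 0.000747). Casp8ap2 (FLASH), which acts in processing with the U7 particle, was at -0.54 and -0.48 (adjusted p = 0.00143 and 0.00466). Lsm10 and Lsm11, the Sm-like proteins particular to the U7 particle, were higher: Lsm10 by 0.91 and 0.60 (adjusted p = 0.000166 and 0.0065), Lsm11 by 0.29 and 0.26 (adjusted p = 0.00838 and 0.0213). Slbp was 0.57 lower on the log2 scale with ERK3 depletion (27.7 ± 9.26 against 41.1 ± 3.93 CPM, adjusted p = 0.00698), and had a value of -0.11 with MK5 depletion (adjusted p = 0.587). Eri1, an exonuclease that acts on the histone stem-loop, had values of -0.35 (adjusted p = 0.0186) and -0.25 (adjusted p = 0.1). Tut4, a uridylyltransferase, was at -1.2 and -0.88 (adjusted p = 1.02e-05 and 0.000241). On log2(TPM + 1), none was called higher and 10 and 5 of 15 were called lower, beside the lower median of all genes on that scale.

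Of 20 cleavage and polyadenylation factors 3 rose and none fell from GM to DM2 in control; 5 rose and 6 fell with ERK3 depleted, and 2 rose and 6 fell with MK5 depleted. These are 15, 55 and 40% of the list, at or below the shares of all genes. In GM 0 were called with ERK3 depletion by edgeR and 1 was higher with MK5 depletion. At DM2 4 were higher and 5 lower in either depleted line (medians -0.04 and -0.07), and those higher included Pabpn1, the nuclear poly-A binding protein (1.21 and 0.66), and Rbbp6 (0.85 and 0.57). On log2(TPM + 1) the DM2 counts were 3 higher and 15 lower with ERK3 depletion and 2 and 13 with MK5 depletion. They stand beside the lower median of all genes on that scale.

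Replication-independent histones are not tied to S phase, and their RNAs carry poly-A tails, though H2afx also has the stem-loop letters. Of 11 tested, 8 fell and none rose from GM to DM2 in control, led by Cenpa, the centromeric H3 (-1.37, edgeR adjusted p = 4.9e-07), H1fx (-1.16) and H2afx (-1.03); 7 fell and 1 rose in each depleted line. H1f0, the linker histone of resting and differentiated cells, fell as well in control, from 377 ± 21.6 to 212 ± 1.79 CPM (-0.83, adjusted p = 2.49e-07). In GM 3 were higher with ERK3 and 4 with MK5 depletion. At DM2 10 were higher and 1 lower with ERK3 depletion, led by H2afj (1.66, adjusted p = 1.08e-05), H2afz (1.27) and H1fx (1.11), and 8 were higher with MK5 depletion, led by H2afx (1.29), H1fx (1.10) and H2afj (1.06). The medians were 0.88 and 0.72. Without the 4 libraries 9 and 6 were higher, but on log2(TPM + 1) the ERK3-depleted split was 4 higher and 4 lower and the MK5-depleted split 5 and 1.

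Of 24 genes of DNA replication in S phase 21 fell from GM to DM2 in control and all 24 in either depleted line, with Tk1, Gins2 and Gins1 leading in control (-1.32, -1.11 and -1.07). In GM 15 were higher with ERK3 depletion, led by the ribonucleotide reductase subunit Rrm2 (0.71, edgeR adjusted p = 0.0315), and 22 with MK5 depletion, led by Rrm2 and Uhrf1 (both 0.78). At DM2 11 were higher and 2 lower with ERK3 depletion, the 2 being Pcna (-0.85) and Mcm4 (-0.53), and 15 were higher with MK5 depletion (medians 0.36 and 0.53); on log2(TPM + 1) these were 2 and 8, and 8 and 0. Of 19 histone chaperones 3 rose and 9 fell in control; with ERK3 depleted 5 rose and 14 fell, and with MK5 depleted 3 rose and 12 fell, with Asf1b at -0.77 in control. In GM 5 and 8 chaperones were higher and none lower, with Chaf1b of the replication-coupled assembly factor at 0.64 in ERK3-depleted cells (adjusted p = 0.0079). At DM2 10 were higher and 1 lower with ERK3 depletion and 8 and 1 with MK5 depletion, led by Hira (0.99 and 0.77), which deposits H3.3, with list medians of 0.27 and 0.21; on log2(TPM + 1) the splits were 2 and 10, and 1 and 4. In the tests of a different response, ERK3 depletion gave 2 higher and 6 lower processing genes, 2 and 3 polyadenylation factors, 4 and 1 replication-independent histones, 3 and 5 chaperones and 2 and 5 S-phase genes. MK5 depletion gave 0 and 5, 0 and 3, 4 and 0, 0 and 1, and 1 and 3. Of all genes tested, 28.6% and 18% were called in these tests for ERK3 and MK5 depletion.

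Markers of other cell types moved with the groups too. The summed level of 6 fibroblast markers was 80.6 to 134 CPM in control DM2. It was 77.0 to 106 in ERK3-depleted and 56.7 to 93.1 in MK5-depleted DM2, against 27.0 to 54.9 in GM. Dcn and Pdgfra were the highest and moved in opposite directions. Mean Dcn was higher at DM2 than in GM in each line (88.5 against 11.3 CPM in control). Mean Pdgfra was lower at DM2 in each line (9.73 against 23.4 CPM in ERK3-depleted cells). The sum thus does not show a rise of all 6 markers. Of 5 macrophage or leukocyte markers Tyrobp and Adgre1 were at 0 in every library, and the sum was 0.773 to 1.21 CPM in control DM2, 1.66 to 2.73 in ERK3-depleted and 1.47 to 2.51 in MK5-depleted DM2. The sum of 4 endothelial markers was 0.329 to 1.53 CPM in all libraries. The sum of 7 markers of differentiated muscle was 2360 to 2740 CPM in control DM2, 1290 to 2030 in ERK3-depleted and 1340 to 2430 in MK5-depleted DM2. Their part in the histone results was not tested.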

How the data were processed

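The deposited counts are uniquely mapped reads per gene; the submitters' processing notes name bcl2fastq 2.17, STAR 2.5.1b and the build GRCm38. The column of reverse-strand counts was used. The deposited expected counts and TPM come from RSEM 1.2.28, per the same notes, and were used per gene as deposited. Expected counts were rounded for the fits. The labels' protocols give a stranded library kit with poly-A selection. Gene symbols, models and sequences come from GENCODE M21 and GRCm38, and 50376 of 50600 identifiers matched. Only 45737 had the same version number, so the deposited values rest in part on other models. Stem-loops, 3-prime ends, overlaps and shared words were read from M21 and may differ from the models that were counted. Summary lines (unmapped, multimapping, ambiguous, outside genes) stayed out of library sizes and tests.

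All genes passing filterByExpr (13939) were fitted with edgeR 4.0.16 (R 4.3.3, TMM, robust quasi-likelihood) with a mean for each of 6 groups and 18 libraries, which left 12 residual degrees of freedom; 11 contrasts were tested and p-values adjusted by Benjamini-Hochberg over all genes, with a call under 0.05. CPM are counts per 1000000 of the TMM-scaled library. The same fit was made on RSEM reads, and limma 3.58.1 was used on log2(TPM + 1) and log2(TPM + 0.1) for genes with 1 TPM in 3 libraries. DESeq2 1.42.0, RLE factors, no filter, unstranded counts, the replicate block, removal of each library's trend with length and GC, a covariate for reads outside genes and left-out libraries were alternatives. Counts for the other lists under log2(TPM + 1) and without 4 libraries, and the RSEM alternatives, were added after seeing the data. Scripts were tested on simulated data.

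The members and lists were chosen with earlier results of these data known. Values by library are given for members with a group mean of at least 5 CPM and for others called in a depletion comparison; in each comparison up to 6 called members in each direction are named, and of other lists Slbp, Npat, Casp8ap2, Lsm10, Lsm11, Eri1 and up to 3 called genes with the largest fold. Replicates differed by more than counting noise, so no library was a copy. Of 45 same-numbered pairs of libraries from different groups, 29 deviated together (r over 0.1; range -0.127 to 0.526). In 5 of the 9 pairs of groups compared all 3 did: ERK3-depleted GM with DM2 (0.227 to 0.377), control with ERK3-depleted in GM (0.201 to 0.365) and at DM2 (0.136 to 0.223), control with MK5-depleted in GM (0.172 to 0.284), and both depleted lines at DM2 (0.334 to 0.526). There the numbers, which come from the sample titles, were taken to pair samples. Protein sequences were not used here.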

Additional observations from a re-analysis of the deposited data

Results flagged for a closer look

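There were 6 results of clustered histone genes that differed in the response to DM2 between a depleted line and control, by an interaction test in edgeR; each group holds 3 libraries and no explanation was weighed. On counted reads the response of Hist3h2a was 1.5 ± 0.43 log2 units higher in the ERK3-depleted line than in control (adjusted p = 0.0173), and on RSEM reads it was 0.65 (adjusted p = 0.0458). The RSEM call was lost in 10 of 12 fits that leave out a library, without the 4 libraries with most reads outside genes (0.31, adjusted p = 0.431), with the covariate (0.23) and on log2(TPM + 1) (0.14). On RSEM reads, in the same comparison, Hist1h2ap differed by 0.89 ± 0.30 (adjusted p = 0.0385), a call lost in 9 of 12 such fits and without the 4 libraries (0.18, adjusted p = 0.75). Hist2h2aa2 differed by 1.37 ± 0.39 (adjusted p = 0.0185), a call lost in 3 of 12 fits, without the 4 libraries (0.48, adjusted p = 0.459), with the covariate (0.48, adjusted p = 0.517) and on log2(TPM + 1) (0.76, limma adjusted p = 0.0567). Hist1h2bq differed by a fitted 5.91 (adjusted p = 0.0433) on 0 to 22.3 RSEM reads in a library and 0 in all control DM2 libraries; this value depends on the prior count and is no bound. In the MK5-depleted line Hist2h2aa2 differed by 1.64 ± 0.40 (adjusted p = 0.0167), a call lost in 1 of 12 fits; without the 4 libraries it was 1.28 (adjusted p = 0.0345).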

How the results depend on the processing

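Of 439 results for single members under the alternatives listed for them, 323 kept direction and call, 105 kept direction but not the call and 11 turned. Those that turned were Hist3h2a from GM to DM2 in ERK3-depleted cells (-0.16 on log2(TPM + 1), -0.18 on log2(TPM + 0.1), -0.16 without the TPM filter and -0.15 with the covariate), Hist1h2bc in ERK3-depleted against control DM2 (-0.03 on each TPM setting), Hist1h4i there (-0.08, -0.10 and -0.08) and Hist3h2a in MK5-depleted against control DM2 (-0.18 without the 4 libraries with most reads outside genes). On log2(TPM + 1) the median of all genes was -0.46 in ERK3-depleted and -0.29 in MK5-depleted against control DM2 and 0.12 from GM to DM2 in control, shifts of -0.47, -0.30 and 0.14 from the values on reads. On RSEM reads 138 of 219 added results kept direction and call, 81 lost the call and 0 turned.

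Counts of called members moved by over 1.5 times as follows; 57 members were tested without a filter, 36 on RSEM reads, 46 on TPM and 21 without the 4 libraries. Shares of all genes called are given above for the main fits on counted and RSEM reads only. The other counts show how calls move with the setting, not how members compare with all genes. Unless named the cause was not tested. From GM to DM2 in control, 3 became 6 without a filter, 9 on RSEM reads, 11, 10 and 5 on TPM (+ 1, + 0.1, + 1 without a filter), 5 with length and GC trends removed, 6 with the covariate and 8 without the 4 libraries; 7 with the replicate block, 6 with it within lines and 6 with it and the trends removed. In ERK3-depleted cells 7 became 3 at an adjusted p of 0.01, 11 without a filter, 21, 14 and 16 on TPM, 11 with trends removed and block, and 3 with the covariate. In MK5-depleted cells 5 became 2 at 0.01, 8 without a filter, 12 on RSEM reads, 15, 13 and 14 on TPM and 8 with trends removed and block. For ERK3 depletion in GM, 1 became 0 at 0.01, 2 without a filter, 2 with the block, 0 on each TPM setting, 0 with trends removed, 2 with trends removed and block, and 2 without the 4 libraries. At DM2, 4 became 2 at 0.01, 12 on RSEM reads, 8, 12 and 7 on TPM, 2 with trends removed, 0 with the covariate and 1 without the 4 libraries. For MK5 depletion in GM, 0 became 1 without a filter, with the block, on RSEM reads, on unstranded counts, with trends removed, with the covariate and without the 4 libraries, and 2 with trends removed and block. At DM2, 1 became 0 at 0.01, 2 without a filter, 6 on RSEM reads, 4, 5 and 3 on TPM, 2 with trends removed, 3 with these and the block, 0 with the covariate and 0 without the 4 libraries. Between the depleted lines 0 became 1 in GM and 2 at DM2 without a filter. For the ERK3-depleted response 1 became 0 at 0.01, 2 without a filter, 4 on RSEM reads, 4, 3 and 2 on TPM, 2 with trends removed, 2 with these and the block, 0 with the covariate and 0 without the 4 libraries. For the MK5-depleted response 0 became 2 without a filter, 1 on RSEM reads, 1, 1 and 2 on TPM and 1 without the 4 libraries. The other settings, RLE factors and DESeq2 among them, left each count within 1.5 times.

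Leaving out each library in turn gave 2 to 4, 4 to 6 and 3 to 6 members from GM to DM2 in control, ERK3-depleted and MK5-depleted cells, 0 to 0 and 2 to 8 for ERK3 depletion in GM and at DM2, 0 to 1 and 0 to 2 for MK5 depletion, 0 to 0 and 0 to 3 between the depleted lines, and 1 to 2 and 0 to 1 for the responses. Where the replicate numbers pair the samples, the block changed no member's call on counted reads beyond those given above; elsewhere the samples share only a number. As a hint from the data, in those 4 pairs of groups 6 of 6 libraries correlated best with their own number between control and MK5-depleted DM2, 4 of 6 between control GM and DM2 and between the depleted lines in GM, and 2 of 6 between MK5-depleted GM and DM2. Depth limits Hist1h1b, Hist1h1d, Hist1h2ae, Hist1h3c and Hist1h4d most, with at most 30 reads in any library.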
